A study of Mus musculus with 4 samples.

Results

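Oxidative phosphorylation genes encode the subunits of the mitochondrial respiratory chain and ATP synthase, and some of the proteins that assemble them. They were taken as the protein-coding genes whose symbol begins with Nduf followed by a, b, c, s or v, with Uqcr, with Cox followed by 4 to 8, or with Atp5, together with the 4 Sdh subunit genes and the protein-coding genes of the mitochondrial genome. This gave 104 of the 22422 genes in the table, of which 91 lie in the nuclear genome and 13 in the mitochondrial genome. A further 2 annotated genes that match the names, Cox7b2 and Cox8c, were not analysed here. The rule itself uses symbols and the genome alone and no measured value, and all 104 had a mean value of at least 1, the level needed to enter the test.

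RNA was sequenced from the distal colon of female C57BL/6 mice aged 6 weeks that drank 2% dextran sulfate sodium (DSS), a chemical that injures the colonic epithelium, for 5 days. There were 2 libraries from Elf4fl/fl-Villin-Cre mice and 2 from wild type mice, and every mouse had received DSS. In Elf4fl/fl-Villin-Cre mice the Cre recombinase is driven by the villin promoter, which is active in intestinal epithelium, so the floxed Elf4 alleles are targeted there and not in the immune, stromal and muscle cells of the colon wall. For Elf4fl/fl-Villin-Cre samples the strain is labelled C57BL/8, and the labels do not give the alleles of the wild type mice or say whether replicates came from separate animals, so p-values measure the spread between these libraries, which may be technical. Elf4 is a transcription factor of the ETS family.

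The respiratory chain passes electrons from NADH (complex I) and succinate (complex II) through ubiquinone, complex III and cytochrome c to oxygen at complex IV, and complex V uses the proton gradient so built to make ATP. Complexes I, III, IV and V each combine proteins encoded in the nucleus and imported into mitochondria with core proteins encoded by mitochondrial DNA, whereas complex II is encoded in the nucleus alone. Colonocytes, the absorptive cells of the colon, rely on oxidation of butyrate in their mitochondria for energy.

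Libraries held 16023926 and 16425954 reads in Elf4fl/fl-Villin-Cre colon and 16134509 and 15885028 reads in wild type colon. Values are normalised reads, that is, the authors' read counts times a factor per library, without gene length. Elf4, the targeted gene, had 897 and 758 normalised reads in Elf4fl/fl-Villin-Cre colon, against 1588 and 1938 in wild type colon, and the groups did not overlap (log2 fold change -1.09 ± 0.16 SE, limma adjusted p = 0.0139). This gene-level value also counts reads outside the floxed part, which the labels do not specify. In whole colon, loss of the targeted alleles and fewer epithelial cells cannot be told apart by this value. The log2 fold changes of the 8 epithelial markers given below ran from -2.15 to -1.14. Over 22050 genes tested with limma on log2(value + 1), with Benjamini-Hochberg adjustment over all of them at 0.05, 1897 (8.6%) were lower and 1512 (6.86%) higher in Elf4fl/fl-Villin-Cre colon, and the median log2 fold change was 0.11. All 8 epithelial markers fell (Epcam, Krt8, Krt18, Krt19, Cdh1, Cldn3, Cldn7 and Elf3), their summed level being 62775 to 81140 in Elf4fl/fl-Villin-Cre colon and 208398 to 262899 in wild type colon, and 9 of 14 absorptive colonocyte markers fell with them. All 8 neutrophil markers rose (median log2 fold change 3.32), as did all 8 monocyte and macrophage markers (0.97), and none of these markers was at 0 in every library. Of the fibroblast markers 2 of 6 rose, of the pericyte and endothelial markers 4 of 6 and of the erythroid markers 4 of 5.

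Of the 91 nuclear oxidative phosphorylation genes, 46 fell in Elf4fl/fl-Villin-Cre colon, 1 rose and 44 did not pass the test, against a background of 8.6% lower and 6.86% higher over all genes. Their median log2 fold change was -0.54, beside 0.11 over all genes tested, and 82 of the 91 had a negative value, beside 43.8% of all genes. In 77 of the 91 both Elf4fl/fl-Villin-Cre libraries lay below both wild type libraries, which held for 27.2% of all genes. In 7 of the 91 they lay above, which held for 35% of all genes. edgeR's quasi-likelihood test on the recovered reads called 51 lower and 1 higher of 90 tested, beside a background of 13.5% lower and 9.88% higher of 17337 genes.

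Summed over the nuclear genes, the level was 105175 and 118899 normalised reads in Elf4fl/fl-Villin-Cre colon and 186610 and 191622 in wild type colon. This sum was 0.806% and 0.866% of the Elf4fl/fl-Villin-Cre libraries and 1.12% and 1.14% of the wild type libraries, so the groups did not overlap on either scale. The ratio of the nuclear sum to the epithelial marker sum was 1.68 and 1.47 in Elf4fl/fl-Villin-Cre colon and 0.895 and 0.729 in wild type colon, higher in both Elf4fl/fl-Villin-Cre libraries. In whole colon, fewer epithelial cells and less of these RNAs per cell cannot be told apart, and the part of the marker changes in the values of this gene group was not tested.

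The number of nuclear genes called depended on the libraries and on the scaling. All 46 genes called lower stayed negative in every fit run. They were picked as lower in these same libraries, with no overlap between groups. Leaving out a library could therefore not turn their sign in limma. Fits of edgeR on 3 libraries called 21 lower when Elf4fl/fl-Villin-Cre replicate 1 was left out, 45 when replicate 2 of that genotype was, 38 when wild type replicate 1 was and 19 when wild type replicate 2 was. With values scaled to library totals limma called 21 lower and 3 higher, beside 1194 lower and 4114 higher of 22025 genes tested. With quantile normalisation it called 25 lower and 2 higher, beside 1302 lower and 1230 higher of 22050. The unadjusted counts that follow have no share over all genes beside them. Limma without a variance trend, or on 3 libraries, called none, with 49 nuclear genes lower at an unadjusted p under 0.05 in the fit without a trend and 44 to 60 in the fits on 3 libraries. In each of the other 14 fits, the one on all libraries included, 17 genes were called lower: Ndufa9 and Ndufb9 of complex I, Sdha, Sdhb and Sdhd of complex II, Uqcrc1 and Uqcrfs1 of complex III, Cox5a, Cox5b, Cox7b and Cox8a of complex IV, and Atp5a1, Atp5b, Atp5d, Atp5g1, Atp5g3 and Atp5o of complex V.

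**Figure D1:**
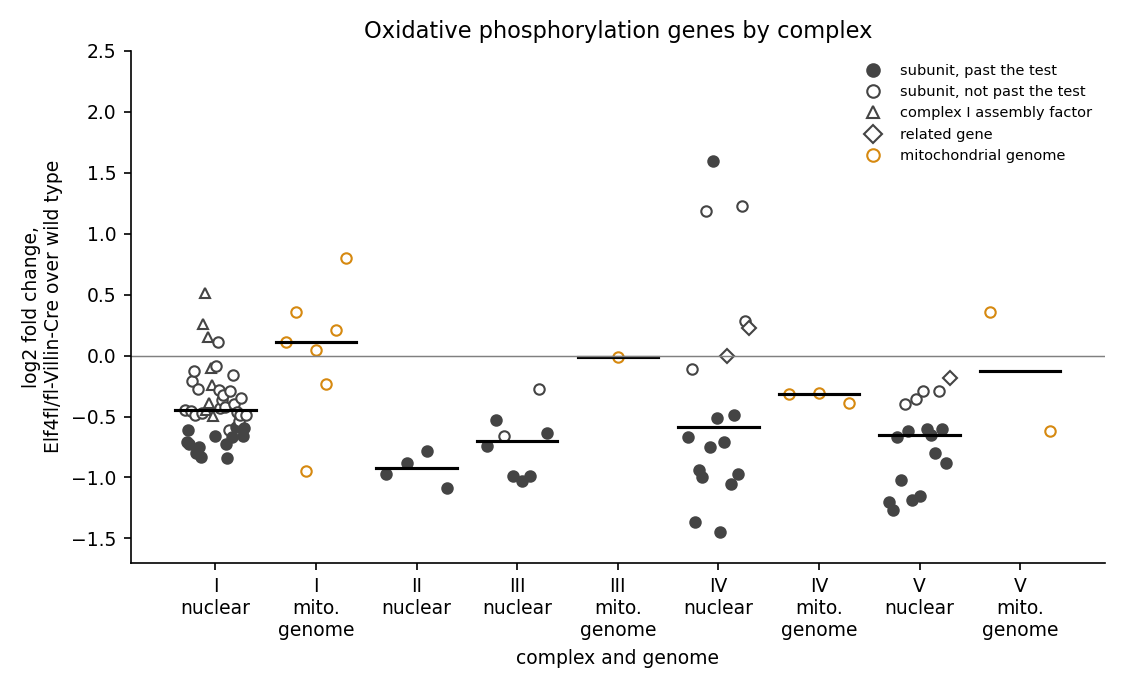
Log2 fold change (Elf4fl/fl-Villin-Cre over wild type) of each of the 104 genes, grouped by complex and by genome; each point is a gene, filled where it passed the limma test, and the black bars are medians. Most nuclear points lie below 0, with medians from -0.93 (complex II) to -0.45 (complex I), 1 filled point above 0 (Cox6b2), and no filled point among the mitochondrial genes.

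Complex I, the NADH dehydrogenase, had 13 of 44 nuclear genes lower and none higher, beside 8.6% lower over all genes. Its median log2 fold change was -0.45. Ndufa4 and Ndufa4l2, despite their names, were counted with complex IV and not here. Of its 7 nuclear core subunits, which carry the flavin and the iron-sulfur clusters, 3 fell: Ndufv1, which binds NADH, and the iron-sulfur proteins Ndufs1 and Ndufv2. Of 29 accessory subunits 10 fell, and of 8 assembly factors, which help build the complex but are not part of it, none passed limma or edgeR, with 2 at an unadjusted limma p under 0.05. The summed level of the 44 genes was 28703 and 31746 in Elf4fl/fl-Villin-Cre colon and 42718 and 41954 in wild type colon, a ratio of 0.714.

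Ndufb9, an accessory subunit of the membrane arm, had 1239 and 1470 normalised reads in Elf4fl/fl-Villin-Cre colon, against 2449 and 2374 in wild type colon (log2 fold change -0.84 ± 0.14 SE, limma adjusted p = 0.0175). Ndufa9, an accessory subunit at the junction of the peripheral and membrane arms, had 802 and 911 in Elf4fl/fl-Villin-Cre colon and 1507 and 1534 in wild type colon (-0.83 ± 0.13, limma adjusted p = 0.0156). Ndufa6 had 1439 and 1649 in Elf4fl/fl-Villin-Cre colon and 2700 and 2671 in wild type colon (-0.80 ± 0.13, limma adjusted p = 0.0173). In each of these 3 genes both wild type libraries lay close together and well above both Elf4fl/fl-Villin-Cre libraries. Over all genes, both wild type libraries lay above both Elf4fl/fl-Villin-Cre libraries in 27.2%. The 3 genes were named for their small p-values, so their lack of overlap adds nothing to the calls. Of the 50-base windows of Ndufb9, 15.6% also occur in other annotated genes. Ndufa8, an accessory subunit held together by disulfide bonds in the intermembrane space, had 576 and 646 in Elf4fl/fl-Villin-Cre colon and 1021 and 1033 in wild type colon (-0.75 ± 0.13, limma adjusted p = 0.0193). Quantile normalisation ended the call of Ndufa6 (limma adjusted p = 0.0521), and library totals that of Ndufa8 (limma adjusted p = 0.0536). Ndufa8 also lost it in edgeR with either Elf4fl/fl-Villin-Cre replicate 1 (adjusted p = 0.0531) or wild type replicate 2 (adjusted p = 0.0522) left out. Ndufaf2, an assembly factor, had the most positive value among the nuclear genes of the complex, with 165 and 138 in Elf4fl/fl-Villin-Cre colon and 96.7 and 115 in wild type colon (0.51 ± 0.21, limma adjusted p = 0.161). It passed with library totals (limma adjusted p = 0.0433), and 64.1% of the 50-base windows of its exons also occur in other annotated genes, so its reads are uncertain. The promoter of Ndufa9 is shown because it holds the YY1 motif discussed further down; it covers chr6:126849095-126849394 on the minus strand, from 5′ to 3′ on that strand, with the motif in capitals.
Ndufa9: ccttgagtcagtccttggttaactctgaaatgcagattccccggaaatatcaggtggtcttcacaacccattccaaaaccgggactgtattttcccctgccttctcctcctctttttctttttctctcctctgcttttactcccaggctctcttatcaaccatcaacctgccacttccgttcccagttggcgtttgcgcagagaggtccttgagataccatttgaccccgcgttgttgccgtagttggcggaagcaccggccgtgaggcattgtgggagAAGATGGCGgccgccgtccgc

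Complex II, the succinate dehydrogenase that also serves the citric acid cycle, fell as a whole, with a median log2 fold change of -0.93. All 4 of its subunit genes were called lower, beside 8.6% over all genes. Sdhd, a membrane anchor, had 1522 and 1829 normalised reads in Elf4fl/fl-Villin-Cre colon and 3382 and 3708 in wild type colon (log2 fold change -1.09 ± 0.15 SE, limma adjusted p = 0.0120). Sdha, the flavoprotein that oxidises succinate, had 2295 and 2748 in Elf4fl/fl-Villin-Cre colon and 4704 and 5174 in wild type colon (-0.97 ± 0.15, limma adjusted p = 0.0150). Sdhb, the iron-sulfur subunit, had 1182 and 1229 in Elf4fl/fl-Villin-Cre colon and 2162 and 2273 in wild type colon (-0.88 ± 0.12, limma adjusted p = 0.0125). Both wild type libraries were above both Elf4fl/fl-Villin-Cre libraries for each subunit, which held for 27.2% of all genes. Sdhc, the other membrane anchor, had 1154 and 1453 in Elf4fl/fl-Villin-Cre colon and 2087 and 2371 in wild type colon (-0.78 ± 0.16, limma adjusted p = 0.0286), a call that was lost with library totals (limma adjusted p = 0.0676) and with quantile normalisation (0.0768), and in edgeR when Elf4fl/fl-Villin-Cre replicate 1 (0.0802) or wild type replicate 2 (0.0794) was left out. The summed level was 6153 and 7260 in Elf4fl/fl-Villin-Cre colon and 12334 and 13525 in wild type colon, a ratio of 0.519. The promoter of Sdhb, shown because it holds an ETS core, lies at chr4:140961021-140961320 on the plus strand and is given 5′ to 3′ with the core in capitals.
Sdhb: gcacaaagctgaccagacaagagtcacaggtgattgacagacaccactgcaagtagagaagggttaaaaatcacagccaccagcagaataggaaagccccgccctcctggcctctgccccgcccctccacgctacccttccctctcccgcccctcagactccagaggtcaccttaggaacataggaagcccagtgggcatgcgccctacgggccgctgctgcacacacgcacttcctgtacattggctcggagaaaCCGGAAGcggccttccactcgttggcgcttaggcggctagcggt

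Complex III, the cytochrome bc1 complex, had 6 of 8 nuclear genes lower and none higher, beside 8.6% lower over all genes. Its median log2 fold change was -0.70. Uqcrc1, one of the large matrix-facing core proteins, had 1657 and 1705 normalised reads in Elf4fl/fl-Villin-Cre colon and 3228 and 3436 in wild type colon (log2 fold change -0.99 ± 0.12 SE, limma adjusted p = 0.0107). Uqcrfs1, the Rieske iron-sulfur protein, had 1409 and 1633 in Elf4fl/fl-Villin-Cre colon and 2912 and 3103 in wild type colon (-0.99 ± 0.14, limma adjusted p = 0.0126). Uqcrc2, the partner of Uqcrc1, had 1881 and 2371 in Elf4fl/fl-Villin-Cre colon and 4087 and 4566 in wild type colon (-1.03 ± 0.16, limma adjusted p = 0.0156). In all 8 genes, called or not, both Elf4fl/fl-Villin-Cre libraries were below both wild type libraries, which held for 27.2% of all genes. Uqcr10, a small accessory subunit, had 1177 and 1374 in Elf4fl/fl-Villin-Cre colon and 2300 and 1957 in wild type colon (-0.74 ± 0.15, limma adjusted p = 0.0277). With wild type replicate 2 left out, edgeR's adjusted p for Uqcrc2 was 0.0503, and with Elf4fl/fl-Villin-Cre replicate 1 left out it was 0.0746 for Uqcr10. Uqcr10 also missed the threshold with library totals (limma adjusted p = 0.0803), with quantile normalisation (0.0880) and in edgeR with wild type replicate 1 left out (0.0526). Uqcrh, the hinge protein that contacts cytochrome c1, had the value nearest 0 among the nuclear genes of the complex, with 2126 and 2314 in Elf4fl/fl-Villin-Cre colon and 2627 and 2727 in wild type colon (-0.27 ± 0.13, limma adjusted p = 0.205); its sign turned with library totals (0.04) and quantile normalisation (0.01). The summed nuclear level was 11608 and 13333 in Elf4fl/fl-Villin-Cre colon and 20730 and 21480 in wild type colon, a ratio of 0.591. The promoter of Uqcrc1, shown because it holds an NRF1 motif, lies at chr9:108936398-108936697 on the plus strand; the motif matches on both strands with overlap, so the capitals run over both matches.
Uqcrc1: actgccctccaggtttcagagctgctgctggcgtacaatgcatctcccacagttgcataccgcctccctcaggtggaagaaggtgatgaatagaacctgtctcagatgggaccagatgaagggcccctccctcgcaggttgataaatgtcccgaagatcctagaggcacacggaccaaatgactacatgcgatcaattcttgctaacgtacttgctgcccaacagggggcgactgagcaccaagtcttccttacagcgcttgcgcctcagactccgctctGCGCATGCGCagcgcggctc

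Complex IV, the cytochrome c oxidase, held both ends of the range. Of its 18 nuclear genes 11 fell and 1 rose, beside 8.6% lower and 6.86% higher over all genes. Ndufa4, Ndufa4l2 and Cox7a2l are counted among the 18. The log2 fold changes ran between -1.44 and 1.60 with a median of -0.59. Cox5a, an accessory subunit on the matrix side, had 1133 and 1314 normalised reads in Elf4fl/fl-Villin-Cre colon and 2969 and 3329 in wild type colon, 2.57-fold lower in Elf4fl/fl-Villin-Cre colon (log2 fold change -1.36 ± 0.14 SE, limma adjusted p = 0.00942). Cox7b had 1247 and 1258 in Elf4fl/fl-Villin-Cre colon and 2707 and 2510 in wild type colon (-1.06 ± 0.12, limma adjusted p = 0.00970). Cox8a had 2679 and 3136 in Elf4fl/fl-Villin-Cre colon and 5734 and 5646 in wild type colon (-0.97 ± 0.14, limma adjusted p = 0.0137). Cox5b had 1559 and 1846 in Elf4fl/fl-Villin-Cre colon and 3284 and 3203 in wild type colon (-0.93 ± 0.14, limma adjusted p = 0.0141). In Cox5b and the 3 subunits before it, both Elf4fl/fl-Villin-Cre libraries lay below both wild type libraries, which held for 27.2% of all genes. Cox7a1, the heart and skeletal muscle form of subunit VIIa, had the most negative value of all the genes, with 41.5 and 60.2 in Elf4fl/fl-Villin-Cre colon and 131 and 145 in wild type colon (-1.44 ± 0.27, limma adjusted p = 0.0217). With wild type replicate 2 left out, edgeR no longer called it (adjusted p = 0.0752). The summed nuclear level of the complex was 23478 and 26155 in Elf4fl/fl-Villin-Cre colon and 41001 and 41270 in wild type colon, a ratio of 0.603.

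Cox6b2, the isoform of subunit VIb best known from testis, was the one nuclear gene that rose. It had 205 and 193 normalised reads in Elf4fl/fl-Villin-Cre colon and 80.3 and 52.7 in wild type colon, and both Elf4fl/fl-Villin-Cre libraries were more than the spread of either group above both wild type libraries (log2 fold change 1.60 ± 0.26 SE, limma adjusted p = 0.0165). None of the 50-base windows of its exons occurs in another annotated gene, and edgeR no longer called it with wild type replicate 2 left out (adjusted p = 0.0521). Its promoter, at chr7:4753045-4753344 on the minus strand, is shown 5′ to 3′ as the one member that moved the other way; it holds none of the 3 motifs searched and so has no capitals.
Cox6b2: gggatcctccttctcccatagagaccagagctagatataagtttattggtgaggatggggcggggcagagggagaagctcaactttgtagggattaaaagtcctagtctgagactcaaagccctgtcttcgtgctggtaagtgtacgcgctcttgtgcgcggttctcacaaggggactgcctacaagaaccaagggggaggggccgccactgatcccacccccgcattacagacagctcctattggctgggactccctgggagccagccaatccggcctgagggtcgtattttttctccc

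Complex V, the ATP synthase, fell in 12 of 17 nuclear genes, beside 8.6% over all genes, with a median log2 fold change of -0.65. Atp5b, the catalytic beta subunit, had 6843 and 8184 normalised reads in Elf4fl/fl-Villin-Cre colon and 17211 and 18835 in wild type colon, 2.40-fold lower in Elf4fl/fl-Villin-Cre colon (log2 fold change -1.27 ± 0.17 SE, limma adjusted p = 0.0121). Atp5a1, the alpha subunit that alternates with it in the catalytic head, had 6479 and 7771 in Elf4fl/fl-Villin-Cre colon and 15814 and 16887 in wild type colon (-1.20 ± 0.17, limma adjusted p = 0.0130). In both genes, and in all 17 nuclear genes of the complex, the Elf4fl/fl-Villin-Cre libraries lay below the wild type libraries, which held for 27.2% of all genes. Of the 8 nuclear core subunits of the head, central stalk and rotor ring 6 fell, with a median of -1.09, and of the 8 accessory subunits 6 fell, with a median of -0.61. The 5 genes that did not pass, Atp5e, Atp5g2, Atp5h, Atp5l and Atp5s, had values of -0.40 to -0.18 and are named here because few remained. Atp5s, a coupling factor related to the enzyme, was at 71.7 and 79.4 in Elf4fl/fl-Villin-Cre colon and 85.4 and 86.4 in wild type colon (-0.18 ± 0.22, limma adjusted p = 0.613), and its sign turned with library totals (0.13). The summed nuclear level was 35233 and 40405 in Elf4fl/fl-Villin-Cre colon and 69828 and 73393 in wild type colon, a ratio of 0.528.

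**Figure D2:**
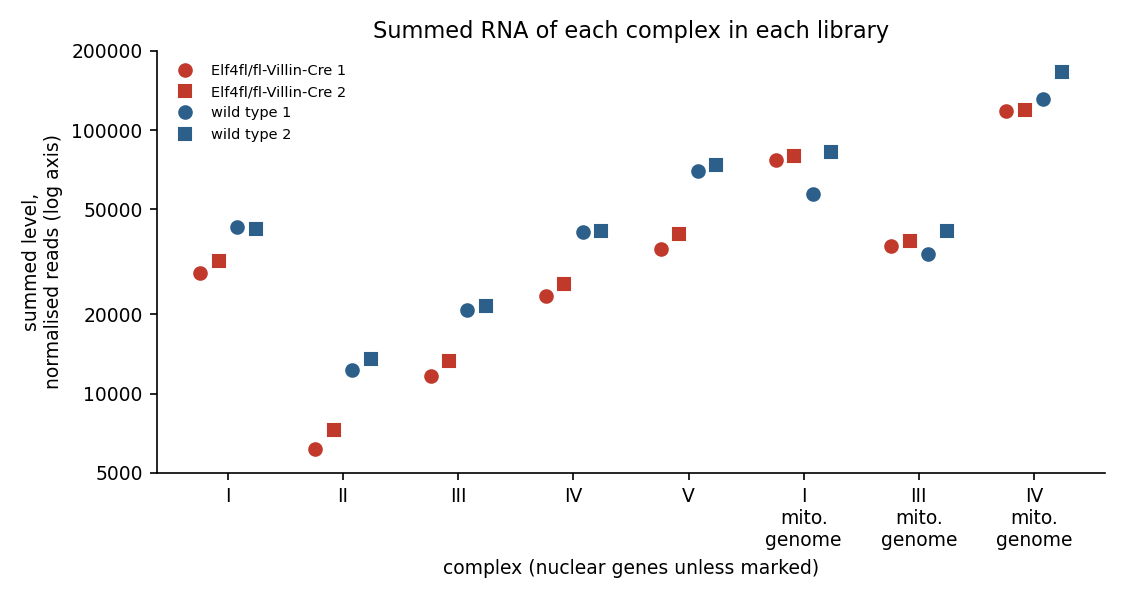
Summed level of each complex in each library, in normalised reads on a log axis, for nuclear genes of complexes I to V and for mitochondrial genes of complexes I, III and IV; red is Elf4fl/fl-Villin-Cre, blue is wild type, and circles and squares are replicates 1 and 2. Both red points lie below both blue points for the nuclear genes of all 5 complexes, and the red and blue points overlap for the mitochondrial genes of complexes I and III.

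Some subunits have isoforms that depend on tissue or oxygen, and their RNA in whole colon was followed as a share of the reads per exon kilobase of all genes of the same name family. Cox6b2 made up 7.59% and 6.16% of the Cox6b family in Elf4fl/fl-Villin-Cre colon and 1.79% and 1.11% in wild type colon, while Cox6b1, the general form, had 1597 and 1880 normalised reads in Elf4fl/fl-Villin-Cre colon and 2821 and 2996 in wild type colon (log2 fold change -0.75 ± 0.14 SE, limma adjusted p = 0.0226). Cox7a1 made up 2.94% and 3.93% of the Cox7a family in Elf4fl/fl-Villin-Cre colon and 6.53% and 7.07% in wild type colon. Cox7a2l, a supercomplex assembly factor counted in this family by its name and not an isoform of the subunit, had 1834 and 1914 in Elf4fl/fl-Villin-Cre colon and 1822 and 1930 in wild type colon (-0.00 ± 0.12, limma adjusted p = 0.995). Its share was 47.0% and 45.3% in Elf4fl/fl-Villin-Cre colon and 33.0% and 34.0% in wild type colon. The sign of Cox7a2l turned with library totals (0.31) and quantile normalisation (0.26). Cox7a2, the general form, had 1248 and 1372 in Elf4fl/fl-Villin-Cre colon and 2136 and 2138 in wild type colon (-0.71 ± 0.13, limma adjusted p = 0.0199).

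The c subunit of the ATP synthase ring is encoded by Atp5g1, Atp5g2 and Atp5g3, whose mature proteins are identical. Atp5g1 had 599 and 768 normalised reads in Elf4fl/fl-Villin-Cre colon and 1528 and 1561 in wild type colon (log2 fold change -1.18 ± 0.16 SE, limma adjusted p = 0.0117). Atp5g3 had 1923 and 2316 in Elf4fl/fl-Villin-Cre colon and 4569 and 4830 in wild type colon (-1.15 ± 0.15, limma adjusted p = 0.0108). Atp5g2 had 1174 and 1331 in Elf4fl/fl-Villin-Cre colon and 1564 and 1637 in wild type colon (-0.36 ± 0.13, limma adjusted p = 0.126). In all 3 genes both Elf4fl/fl-Villin-Cre libraries lay below both wild type libraries, which held for 27.2% of all genes. Of the family's reads per exon kilobase, Atp5g2 gave 41.1% and 39.5% in Elf4fl/fl-Villin-Cre colon and 28.0% and 27.9% in wild type colon, and Atp5g3 gave 51.7% and 52.8% in Elf4fl/fl-Villin-Cre colon and 62.7% and 63.1% in wild type colon. Of the windows of Atp5g2, 38.3% also occur in other annotated genes, so its level and share are uncertain.

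The remaining isoforms linked to low oxygen or muscle were scarce. Cox4i2, a form induced by low oxygen, had 25.2 and 27.6 normalised reads in Elf4fl/fl-Villin-Cre colon and 29.8 and 27.4 in wild type colon (log2 fold change -0.11 ± 0.33 SE, limma adjusted p = 0.847), and its sign turned with library totals (0.19). Its share of the Cox4i family was 1.33% and 1.36% in Elf4fl/fl-Villin-Cre colon and 0.941% and 0.899% in wild type colon. Ndufa4l2, likewise linked to low oxygen, had 19.5 and 20.9 in Elf4fl/fl-Villin-Cre colon and 15.4 and 19.0 in wild type colon (0.23 ± 0.38, limma adjusted p = 0.722), and its sign turned with quantile normalisation (-0.04). Their general partners differed from one another. Cox4i1 had 3694 and 3936 in Elf4fl/fl-Villin-Cre colon and 6181 and 5942 in wild type colon (-0.67 ± 0.13, limma adjusted p = 0.0262). Ndufa4 had 1774 and 1947 in Elf4fl/fl-Villin-Cre colon and 1542 and 1517 in wild type colon (0.28 ± 0.13, limma adjusted p = 0.188), and passed as higher with library totals (limma adjusted p = 0.0215) and quantile normalisation (0.0498). Cox6a1 had 3176 and 4003 in Elf4fl/fl-Villin-Cre colon and 7052 and 7141 in wild type colon (-0.99 ± 0.16, limma adjusted p = 0.0167). The muscle forms Cox6a2 and Cox8b had 3.26 to 9.20 in Elf4fl/fl-Villin-Cre colon and 1.03 to 3.16 in wild type colon, and neither passed the test (limma adjusted p = 0.284 and 0.173).

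Calls among these isoforms moved with single libraries and with the scaling. Leaving out wild type replicate 2 ended edgeR's calls of Cox6a1 (adjusted p = 0.0543), Cox6b1 (0.0646), Cox7a2 (0.0528) and Cox4i1 (0.0718). Leaving out Elf4fl/fl-Villin-Cre replicate 1 ended those of Cox6b1 (adjusted p = 0.0748), Cox7a2 (0.0628) and Cox4i1 (0.101), and leaving out wild type replicate 1 that of Cox4i1 (0.0605). With library totals limma gave adjusted p-values of 0.0583 for Cox6b1, 0.0618 for Cox7a2 and 0.0937 for Cox4i1, and with quantile normalisation 0.0786, 0.0576 and 0.145 for the same genes in that order. Over all genes limma called 8.6% lower and 6.86% higher, and edgeR 13.5% lower and 9.88% higher. Of the striated muscle markers, none of 7 tested passed limma, 1 had an unadjusted p under 0.05 and edgeR called 1 of 5 tested higher. The summed level of those markers was 279 to 424 in Elf4fl/fl-Villin-Cre colon and 377 to 378 in wild type colon, with Myh4 at 0 in every library. Of 8 smooth muscle markers 1 fell, Des, a share (12.5%) near that over all genes. Among the 8, 7 had a negative log2 fold change (median -0.48), beside 43.8% of all genes, and 3 an unadjusted limma p under 0.05. Their sum was 64535 to 95305 in Elf4fl/fl-Villin-Cre colon and 105627 to 136633 in wild type colon. Of the brown adipocyte markers 3 were measured and 1 rose, Dio2, a deiodinase that other cells also express, with 1144 and 961 in Elf4fl/fl-Villin-Cre colon and 79.2 and 40.0 in wild type colon (log2 fold change 4.19 ± 0.32 SE, limma adjusted p = 0.00671). Cidea, which is closer to brown fat, had 8.14 and 13.4 in Elf4fl/fl-Villin-Cre colon and 14.4 and 9.48 in wild type colon. The part of muscle and fat in the isoform values was not tested.

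**Figure D3:**
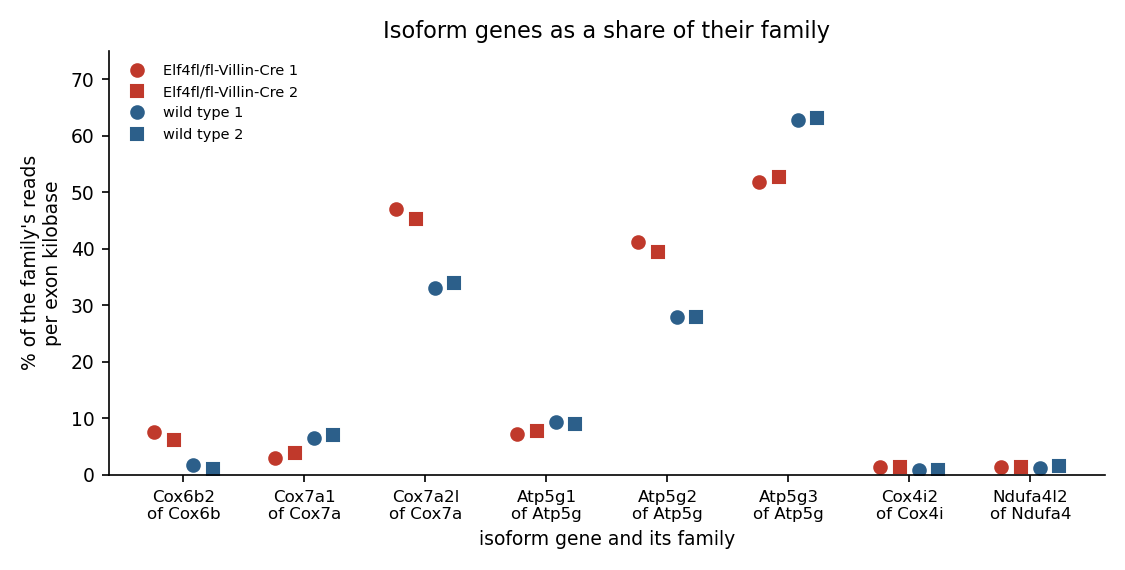
Share (%) of 8 genes in the reads per exon kilobase of their family, in each library; red is Elf4fl/fl-Villin-Cre, blue is wild type, and circles and squares are replicates 1 and 2. Cox4i2, Cox6b2, Cox7a2l and Atp5g2 take larger shares in both Elf4fl/fl-Villin-Cre libraries, Cox7a1, Atp5g1 and Atp5g3 smaller ones, and Ndufa4l2 overlaps.

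None of the 13 genes of the mitochondrial genome passed the test in either direction, by limma (13 tested, 0 at an unadjusted p under 0.05) or by edgeR (10 tested), and their median log2 fold change was -0.01, a sign that turned with library totals (0.30) and quantile normalisation (0.53). Their summed level was 231668 and 236873 normalised reads in Elf4fl/fl-Villin-Cre colon and 221807 and 291023 in wild type colon. On this scale both Elf4fl/fl-Villin-Cre libraries lay between the wild type libraries. This sum was 1.78% and 1.72% of the Elf4fl/fl-Villin-Cre libraries and 1.34% and 1.74% of the wild type libraries. On that scale Elf4fl/fl-Villin-Cre replicate 1 lay above both wild type libraries. The ratio of the mitochondrial to the nuclear sum was 2.20 and 1.99 in Elf4fl/fl-Villin-Cre colon and 1.19 and 1.52 in wild type colon, with no overlap. Of the 13 genes, 2 were lower and 1 was higher in both Elf4fl/fl-Villin-Cre libraries than in both wild type libraries, against 27.2% and 35% of all genes.

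The 7 mitochondrial genes with at least 1000 normalised reads in every library gave nearly all of this sum. mt-Co1, the catalytic subunit of complex IV, had 118425 and 119172 in Elf4fl/fl-Villin-Cre colon and 130617 and 166662 in wild type colon (log2 fold change -0.31 ± 0.33 SE, limma adjusted p = 0.557), and was the most abundant per kilobase, at 76650 and 77134 in Elf4fl/fl-Villin-Cre colon and 84542 and 107872 in wild type colon. mt-Cytb, the one mitochondrial subunit of complex III, had 36335 and 38004 in Elf4fl/fl-Villin-Cre colon and 33767 and 41542 in wild type colon (-0.01 ± 0.23, limma adjusted p = 0.978). The complex I subunit mt-Nd1 had 25346 and 27561 in Elf4fl/fl-Villin-Cre colon and 20265 and 29548 in wild type colon (0.11 ± 0.25, limma adjusted p = 0.793). For these genes the wild type libraries lay further apart than the Elf4fl/fl-Villin-Cre libraries. mt-Nd4 had 16728 and 17712 in Elf4fl/fl-Villin-Cre colon and 15264 and 18246 in wild type colon (0.04 ± 0.18, limma adjusted p = 0.894). mt-Nd5 had 17229 and 16325 in Elf4fl/fl-Villin-Cre colon and 12134 and 17319 in wild type colon (0.21 ± 0.22, limma adjusted p = 0.560). mt-Nd2 had 13127 and 13322 in Elf4fl/fl-Villin-Cre colon and 8119 and 13119 in wild type colon (0.36 ± 0.25, limma adjusted p = 0.378). mt-Nd6, the one protein-coding gene on the opposite strand, showed the widest gap, with 4351 and 4634 in Elf4fl/fl-Villin-Cre colon and 1522 and 4359 in wild type colon (0.80 ± 0.45, limma adjusted p = 0.280). Wild type replicate 1 was the lowest library for each of these genes except mt-Co1. With that library left out the log2 fold change of mt-Nd6 was 0.04, and with wild type replicate 2 left out it was 1.56, where edgeR called it higher (adjusted p = 0.0315).

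The other 6 mitochondrial genes had 1.03 to 109 normalised reads, although they lie between well-covered genes of the same genome. These were mt-Co2 and mt-Co3 of complex IV, mt-Atp6 and mt-Atp8 of complex V, and mt-Nd3 and mt-Nd4l of complex I. For 5 of them, from 98.0% (mt-Nd3) to 100% (mt-Co2) of all 50-base windows also occur in annotated nuclear pseudogenes on chromosome 1. Of the windows of mt-Nd4 and mt-Co1, 62.2% and 51.1% occur in annotated nuclear pseudogenes, of mt-Nd2 and mt-Nd5 8.19% and 7.61%, and of mt-Nd1, mt-Nd6 and mt-Cytb none. mt-Atp8 has no window in an annotated nuclear gene and sits between mt-Co2 and mt-Atp6. Only annotated transcripts were searched, so a nuclear copy outside the annotation would not be seen. How the counting treated reads that match several places is not given in the sources used here, so the levels and fold changes of these 6 genes are uncertain. The first 60 bases of mt-Co2 (chrM:7013-7072, plus strand) and the matching stretch of the pseudogene Gm28661 (chr1:24615506-24615565, minus strand), both read 5′ to 3′ from the mm10 genome, show the identity.
mt-Co2: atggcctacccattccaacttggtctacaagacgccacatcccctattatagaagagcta
Gm28661: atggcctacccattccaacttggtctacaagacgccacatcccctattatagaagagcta

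In these 6 genes mt-Co2 had 68.4 and 66.1 normalised reads in Elf4fl/fl-Villin-Cre colon and 63.8 and 109 in wild type colon, and its copy Gm28661 had 18.7 and 31.8 in Elf4fl/fl-Villin-Cre colon and 18.5 and 32.7 in wild type colon. mt-Co3 had 22.8 and 36.0 in Elf4fl/fl-Villin-Cre colon and 35.0 and 41.1 in wild type colon, and mt-Atp6 had 23.6 and 30.9 in Elf4fl/fl-Villin-Cre colon and 12.3 and 34.8 in wild type colon. mt-Atp8 and mt-Nd4l stayed at 2.06 to 10.5 in all 4 libraries. mt-Nd3 and its copy Gm28438 traded places between libraries: mt-Nd3 had 3.26 and 2.51 in Elf4fl/fl-Villin-Cre colon and 1.03 and 26.3 in wild type colon, while Gm28438 had 25.2 and 65.2 in Elf4fl/fl-Villin-Cre colon and 22.6 and 2.11 in wild type colon. Added together, gene and copy had 28.5 and 67.7 in Elf4fl/fl-Villin-Cre colon and 23.7 and 28.5 in wild type colon. The log2 fold change of mt-Nd3 alone was -0.95 ± 1.21 (SE, limma adjusted p = 0.636), and edgeR called it lower in the fit that left out wild type replicate 1 (adjusted p = 0.0460), the library where it had 1 read.

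**Figure D4:**
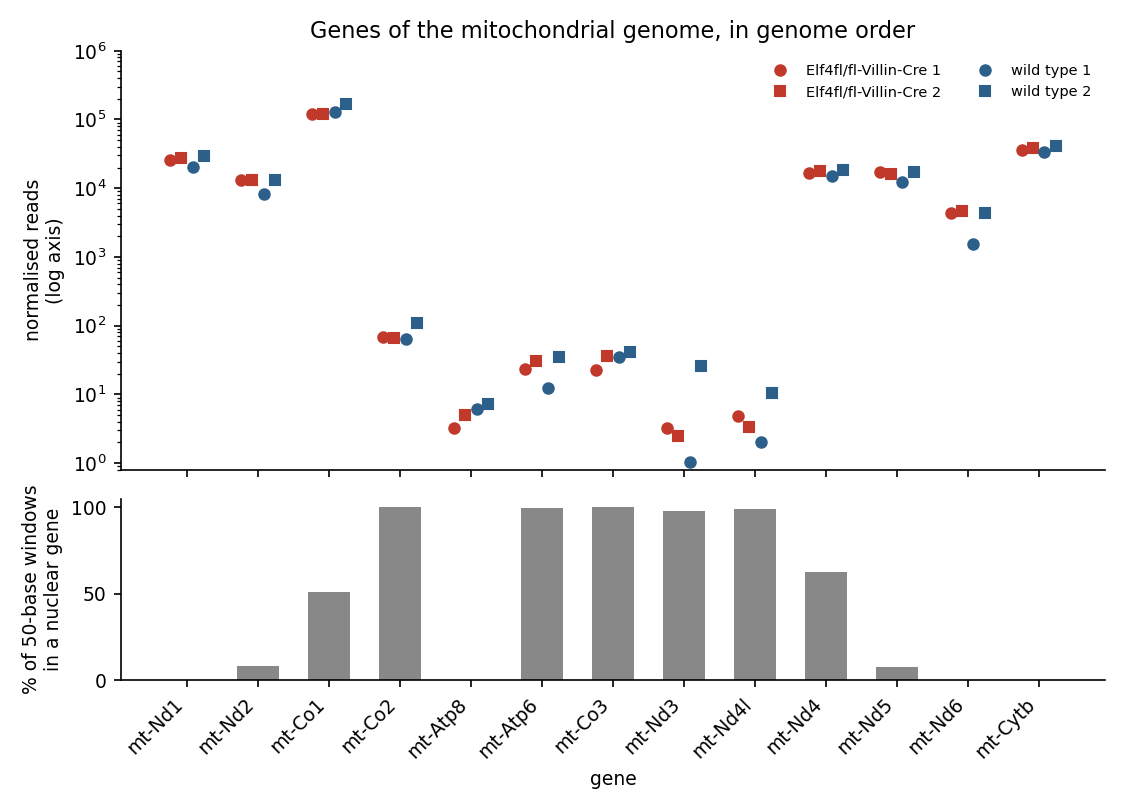
Upper panel, normalised reads (log axis) of the 13 mitochondrial genes in genome order in each library; red is Elf4fl/fl-Villin-Cre, blue is wild type, and circles and squares are replicates 1 and 2. Lower panel, share of each gene's 50-base windows that also occur in an annotated nuclear gene: 5 of the 6 genes under 1000 reads have 98.0% or more, and mt-Atp8 has none.

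Nuclear genes of oxidative phosphorylation share promoter motifs for factors long tied to respiratory genes, and Elf4 binds ETS motifs, so the letters were counted in RefSeq promoter windows of 300 bases (GRCm38.p6). A window was matched by symbol for 73 of the 91 nuclear genes, with 78 windows in all because some have several starts. The ETS core CCGGAAG, on either strand, stood in 23.1% of these windows and in 13.8% of 17781 windows of all tested genes. The NRF1 motif GCGCATGCG stood in 12.8% against 2.78%, and the YY1 motif AAGATGGCG in 10.3% against 2.23%. The last letters of the ETS core, AAG, open the YY1 motif, so the pair can overlap, and Atp5j and Ndufaf8 held both.

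The calls of genes with and without each motif are given side by side, with no test. They stand beside 46 of 91 (50.5%) lower among all nuclear genes of the group and 8.6% over all genes. Of 18 nuclear genes with the ETS core 8 fell, with a median log2 fold change of -0.46. Sdhb, Sdhd, Cox6a1 and Cox8a were among those that fell, and Uqcrh, Atp5e, Atp5h and Atp5l among those that did not pass. Of 55 without the core 28 fell, with a median of -0.59. With the NRF1 motif 6 of 10 fell (median -0.57) and without it 30 of 63 (median -0.50). With the YY1 motif 4 of 8 fell (median -0.60) and without it 32 of 65 (median -0.49). A match of letters is not a bound site, and binding was not measured.

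Of 14 regulators of respiratory genes tested, 4 fell and none rose, beside 8.6% lower over all genes, and the median log2 fold change was -0.04. Esrra, the oestrogen-related receptor alpha, had 1275 and 1451 normalised reads in Elf4fl/fl-Villin-Cre colon and 3357 and 3294 in wild type colon (-1.29 ± 0.13 SE, limma adjusted p = 0.00927). Ppargc1a, the coactivator PGC-1alpha, had 67.6 and 125 in Elf4fl/fl-Villin-Cre colon and 249 and 497 in wild type colon (-1.92 ± 0.42, limma adjusted p = 0.0316), a call lost without the filter on low values (limma adjusted p = 0.0555) and in edgeR when wild type replicate 2 was left out (0.0911). The other two, named after their values were seen, were Esrrg, the oestrogen-related receptor gamma, with 26.1 and 15.1 in Elf4fl/fl-Villin-Cre colon and 57.6 and 87.5 in wild type colon, and Ppargc1b, the coactivator PGC-1beta, with 56.2 and 106 in Elf4fl/fl-Villin-Cre colon and 188 and 280 in wild type colon. The 3 factors tied to the motifs did not pass: Nrf1 had 429 and 429 in Elf4fl/fl-Villin-Cre colon and 411 and 502 in wild type colon, Yy1 had 1371 and 1284 in Elf4fl/fl-Villin-Cre colon and 1260 and 1404 in wild type colon, and Gabpa, the ETS factor of respiratory promoters, had 832 and 763 in Elf4fl/fl-Villin-Cre colon and 622 and 764 in wild type colon.

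The counts for other mitochondrial gene lists stand beside 8.6% lower over all genes, and differences between lists were not tested. Of 26 genes of the citric acid cycle and pyruvate dehydrogenase 11 (42.3%) fell and none rose, and the median log2 fold change was -0.51. Suclg2, a succinyl-CoA ligase subunit, had 476 and 617 normalised reads in Elf4fl/fl-Villin-Cre colon and 1485 and 1938 in wild type colon (-1.64 ± 0.20 SE, limma adjusted p = 0.00973). Of 19 electron carriers and remaining subunits 7 (36.8%) fell, with a median of -0.36. Among them Cyc1, the cytochrome c1 of complex III whose symbol lies outside the naming pattern, had 1031 and 1282 in Elf4fl/fl-Villin-Cre colon and 2390 and 2469 in wild type colon (-1.08 ± 0.15, limma adjusted p = 0.0125), and Coq9, needed to make ubiquinone, had 503 and 539 in Elf4fl/fl-Villin-Cre colon and 962 and 995 in wild type colon (-0.91 ± 0.13, limma adjusted p = 0.0129).

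Assembly factors outside the Nduf names fell in 8 of 37 cases (21.6%), with a median log2 fold change of -0.17. Cox14 had 669 and 767 normalised reads in Elf4fl/fl-Villin-Cre colon and 1334 and 1296 in wild type colon (-0.88 ± 0.13 SE, limma adjusted p = 0.0146), and Sco1, a copper carrier for complex IV, had 323 and 379 in Elf4fl/fl-Villin-Cre colon and 596 and 643 in wild type colon (-0.82 ± 0.15, limma adjusted p = 0.0212). With wild type replicate 2 left out, edgeR no longer called Sco1 (adjusted p = 0.0605). Mitochondrial ribosomal proteins, which translate the 13 mitochondrial messages, fell in 6 of 77 cases, or 7.79%, near the 8.6% over all genes. Their median was -0.20, and 58 of the 77 were negative, beside 43.8% of all genes. In 40 of the 77 both Elf4fl/fl-Villin-Cre libraries lay below both wild type libraries, and in 7 above. These shares were 27.2% and 35% over all genes. The pair with the smallest p were Mrps6 at 540 and 582 in Elf4fl/fl-Villin-Cre colon and 1016 and 1329 in wild type colon and Mrpl12 at 514 and 564 in Elf4fl/fl-Villin-Cre colon and 981 and 1034 in wild type colon. None of 26 genes for mitochondrial DNA upkeep and expression passed limma or edgeR, with 2 at an unadjusted limma p under 0.05 and a median of 0.04. None of 23 membrane translocase genes passed limma, with 8 at an unadjusted p under 0.05 and 1 called lower by edgeR, and their median was -0.17.

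**Figure D5:**
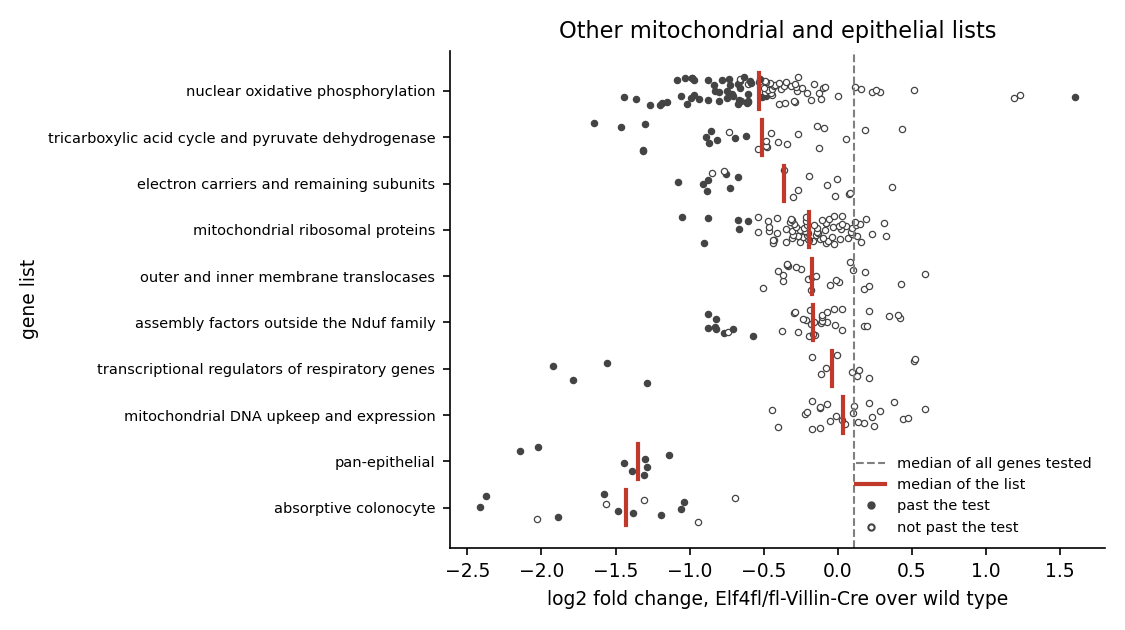
Log2 fold change (Elf4fl/fl-Villin-Cre over wild type) of the tested genes of each list, filled where past the limma test, with the list's median in red and the median of all genes tested (0.11) as a dashed line. Medians of the mitochondrial lists run from -0.54 (nuclear oxidative phosphorylation) to 0.04 (mitochondrial DNA upkeep and expression), and those of the epithelial marker lists are -1.35 and -1.43.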

How the data were processed

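RNA of the distal colon was sequenced in 2 Elf4fl/fl-Villin-Cre and 2 wild type libraries, grouped by the genotype label. Total RNA was isolated with Trizol, per the labels' protocols. The authors deposited 1 normalised signal per gene and library. Per the submitters' processing notes mm10 was the build; which aligner, counter, strand setting and scaling tool were used is not given in the sources used here. Each deposited signal is a whole multiple of 1 step per library (100% of values, tolerance 0.01), the steps being 0.814 and 0.836 in Elf4fl/fl-Villin-Cre and 1.03 and 1.05 in wild type libraries, so whole reads were recovered. Symbols, positions and exon lengths came from GENCODE M21, which matched 22376 of 22422 identifiers.

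Limma 3.58.1 (R 4.3.3) was fitted to log2(value + 1) over the 22050 genes with a mean value of at least 1, with a variance trend, 2 residual and 4.06 prior degrees of freedom, and Benjamini-Hochberg adjustment at 0.05. Fold changes on this scale understate the change of low genes. edgeR 4.0.16 (TMM scaling, quasi-likelihood test) and DESeq2 1.42.0 were run on the recovered reads. The fits were tested on simulated data. Exon and mitochondrial sequences were cut into 50-base windows and looked up in all other annotated transcripts. Levels were compared between genes only per kilobase of exon; sums of normalised reads over genes were compared between libraries, except for the ratios of the mitochondrial and the nuclear sum to another sum, which carry no length correction.

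The rule for the genes uses no measured value, but that rule and the lists were chosen with earlier results of these data known. Named genes were Elf4, all mitochondrial genes, up to 4 called nuclear genes per complex by smallest p with its extremes and any that rose, isoform families, and up to 2 genes called in each direction per list. A gene that this rule names is not reported here. With 2 libraries per group, an exact two-sided permutation test cannot go below 0.333, so none is given. Alternatives were other pseudocounts (0.5 and 5), other filters (none, or a mean of at least 10), library totals, quantile normalisation, no variance trend, a replicate block, edgeR, DESeq2 and leaving out each library; edgeR without each library was added after seeing the data.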

Additional observations from a re-analysis of the deposited data

How the results depend on the processing

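The 46 nuclear genes called lower stayed negative under every alternative. For limma on 3 libraries this was fixed in advance, because the groups did not overlap in any of these genes. Against 1897 of all genes lower and 1512 higher (44.4% of calls higher), library totals gave 1194 lower and 4114 higher (77.5% higher), with 21 nuclear genes lower and 3 higher, because the median log2 fold change of all genes moved to 0.41 from 0.11. Relative to that median the nuclear genes were at -0.63 with library totals and -0.64 as deposited. The nuclear median was -0.22 and the mitochondrial median 0.30 with library totals, and the log2 ratio of the sums was -0.44 for nuclear genes (-0.76 as deposited) and 0.19 for mitochondrial genes (-0.13 as deposited). Quantile normalisation gave 25 nuclear genes lower and 2 higher, beside 1302 of all genes lower and 1230 higher, and a mitochondrial median of 0.53. Without a variance trend limma called 0 genes in either direction, whether all genes or nuclear genes were counted. With a mean of at least 10 the mitochondrial median was 0.078, and in edgeR it was 0.034. DESeq2 called 53 nuclear genes lower and 1 higher, beside 2574 of all genes lower and 1593 higher. The cause of these shifts was not tested beyond the move of the overall median.

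Signs turned for single genes with library totals: Atp5s 0.13, Cox4i2 0.19, Cox7a2l 0.31, Uqcrh 0.045, mt-Co1 0.0037, mt-Co2 0.0078, mt-Cytb 0.30 and mt-Nd4l 0.022. They turned with quantile normalisation for Cox7a2l (0.26), Ndufa4l2 (-0.038), Uqcrh (0.013), mt-Co1 (0.69) and mt-Cytb (0.77), and with DESeq2 for mt-Nd4 (-0.022).

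On 3 libraries limma, with 1 residual degree of freedom and a lone sample assumed to vary like the others, called 0 to 0 genes, nuclear or other. Its nuclear median ran from -0.64 to -0.49, the mitochondrial median from -0.35 to 0.38, the nuclear log2 sum ratio from -0.85 to -0.67 and the mitochondrial one from -0.31 to 0.079. Over the limma fits on 3 libraries log2 fold changes ran from -0.043 to 0.040 for Cox7a2l, -0.16 to 0.14 for mt-Cytb, -0.35 to 1.07 for mt-Atp6, -0.16 to 0.38 for mt-Nd1, -0.084 to 0.17 for mt-Nd4, -0.046 to 0.47 for mt-Nd5, -0.68 to 0.074 for mt-Co2, -2.82 to 0.93 for mt-Nd3 and -1.19 to 0.73 for mt-Nd4l.

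edgeR on 3 libraries called 809 to 2191 of all genes lower and 476 to 1563 higher, and 19 to 45 nuclear genes lower. Without Elf4fl/fl-Villin-Cre replicate 1 it called 844 of all genes higher and 21 nuclear genes lower, with a mitochondrial median of 0.00034. Without Elf4fl/fl-Villin-Cre replicate 2 the nuclear median was -0.68, and mt-Atp6 (-0.034), mt-Nd1 (-0.014) and mt-Nd4 (-0.041) turned. Without wild type replicate 1 it called 1 mitochondrial gene lower, mt-Nd3, and mt-Atp6 (-0.40), mt-Nd1 (-0.20), mt-Nd2 (-0.033), mt-Nd4 (-0.13), mt-Nd5 (-0.090) and mt-Nd6 (-0.0016) turned. Without wild type replicate 2 it called 809 of all genes lower, 476 higher, 19 nuclear genes lower and 0 higher (1 at an unadjusted p under 0.05) and 1 mitochondrial gene higher, mt-Nd6, with a mitochondrial median of 0.25, and Cox7a2l (0.016), mt-Co2 (0.052) and mt-Cytb (0.11) turned.

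With the replicate number as a block, limma called 50 nuclear genes lower and 1 higher and 2445 of all genes lower and 2066 higher, and kept all 46 nuclear calls. The labels do not say that the numbers pair the samples, and the correlation between genotypes of the replicate differences was 0.104 over genes. Few reads limit the precision of Cox6a2 and Cox8b, and with 2 libraries per group 1 library decides many calls.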
